A study of Mus musculus with 3 samples.

Results

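A set of 9 genes of the corneal epithelium and anterior eye was followed here, namely the transcription factor genes Pax6, Trp63, Ehf, Elf3 and Foxc1, the corneal crystallin genes Aldh3a1, Tkt and Aldh1a1, and Clu, the clusterin gene. They were chosen by name, and every region bound by serum response factor (SRF) that the authors assigned to any of them was taken. This gave 12 of the 31850 regions in the deposited table, and 5 of the 9 genes had at least 1 region. The data are SRF chromatin immunoprecipitation followed by sequencing (ChIP-seq) of whole cornea from mice aged about 8 weeks, of mixed strain background and without treatment. There was 1 library titled mutant and 1 titled wildtype, and the third was an input without antibody, whose values were not used here. The name Dstn-corn1 comes from the growth protocol. All 3 libraries carry that protocol, written for Dstn-corn1 mutant mice, at odds with the wildtype title. The labels do not say whether animals were pooled or which genotype gave the input. Each genotype had 1 library, so no value below has a replicate check, no error can be attached to it and no test was made. The files used here hold no read totals, so the depth behind each value is unknown.

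SRF binds DNA at the CArG box and acts with cofactors that respond either to the actin monomer pool (the MRTFs) or to growth factor signalling (the ETS-type ternary complex factors). Dstn encodes destrin, which takes actin filaments apart, and mice without functional destrin develop a thickened corneal epithelium with excess filamentous actin. Pax6 is a master regulator of eye development that is kept on in the adult corneal epithelium, and Trp63 encodes p63, a factor of basal and progenitor cells of stratified epithelia. Ehf and Elf3 encode ETS factors of differentiating epithelia. Foxc1 encodes a forkhead factor of the anterior segment that is needed for a clear cornea free of vessels. Corneal crystallins are enzymes that accumulate in the tissue far beyond catalytic need: Aldh3a1 and Aldh1a1 are aldehyde dehydrogenases and Tkt is transketolase of the pentose phosphate pathway. Clusterin is a secreted chaperone abundant in ocular surface epithelium. These assays measure SRF binding and not expression, so the tissue label could not be checked against the transcripts of these genes.

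As a check of the labels, the 3 regions of Dstn were listed at 0 in the mutant library and at 35, 11 and 13 in wildtype. The libraries thus differed at this gene. Whether the zeros mean absent sequence or absent SRF binding was not tested. Over all regions the median height was 13 in mutant against 28 in wildtype, and the log2 ratio (mutant over wildtype) had a median of -1.10. A height is the deposited signal where a region peaks, and ratios were taken after adding 1 to both heights. The labels and headers do not say how the libraries were scaled to each other, so each ratio below is read against that median rather than against 0.

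The first question was which of the 9 genes had SRF bound at or near them. In wildtype cornea the authors called an interval at 5 genes, Pax6, Elf3, Foxc1, Tkt and Clu. In mutant cornea they called intervals at 4, the same genes without Pax6. Among 21900 protein-coding genes of the RefSeq table the share with an interval was 65.5% in wildtype and 49.6% in mutant, and with 9 genes neither count is read as a departure from that background. Trp63, Ehf, Aldh3a1 and Aldh1a1 had no assigned region in either library. Within 1 kb of a gene start, the wildtype library had intervals at Elf3, Foxc1 and Clu and the mutant library at Elf3 and Clu, beside 32.1% and 21.0% of protein-coding genes.

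**Figure D1:**
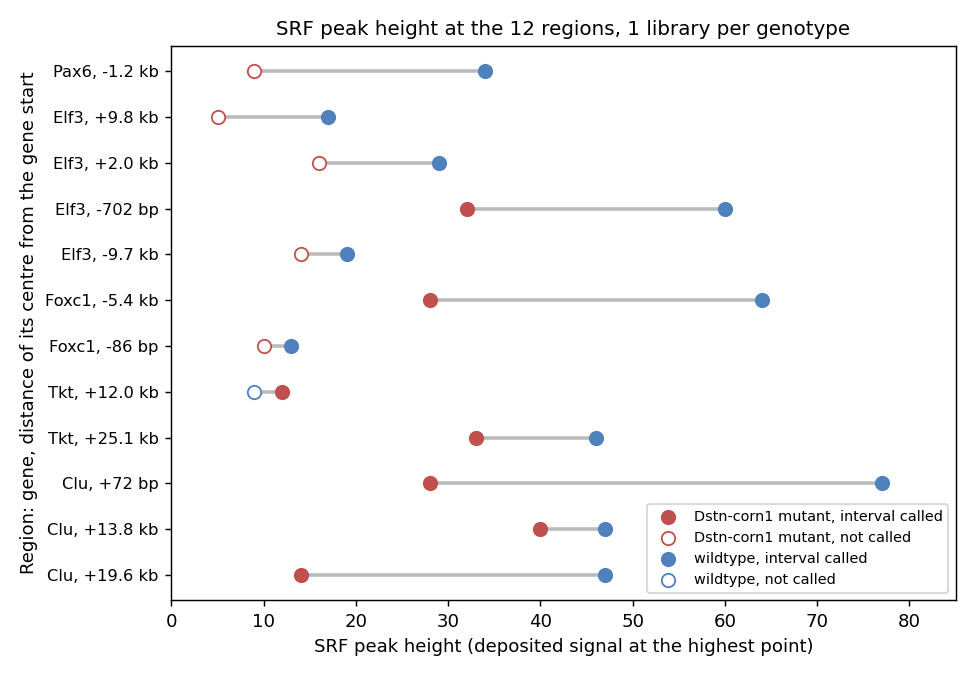
SRF peak height (x axis, deposited signal) at each of the 12 regions (y axis, gene and distance of the region centre from the gene start), with red points for the Dstn-corn1 mutant library and blue points for the wildtype library; filled points mark a called interval. Wildtype lies to the right of mutant in 11 of 12 regions, and the exception is the Tkt region at 11970 bp.

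Pax6 had a single region, at chr2:105667329-105668029 (mm10), centred 1217 bp upstream of the gene start. Mutant cornea had a height of 9 and wildtype cornea 34 (log2 ratio -1.81), and only the wildtype library had a called interval there. The ratio was the lowest of the 12, and 12.8% of all regions lay below it. The same region lies inside Pax6os1, the antisense transcript next to Pax6, 2651 bp past its start, so the values cannot be given to either gene alone. The wildtype height was higher than that of 59.8% of regions and the mutant height higher than that of 25.2%.

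Elf3 had the most regions of the 9 genes, with 4 spread from 9692 bp upstream to 9850 bp past its start. The highest, at chr1:135258745-135259604, was centred 702 bp upstream and reached 32 in mutant and 60 in wildtype. It was called in both libraries, and the summit stood at 135259264, listed at -792 from the start, in each. A region inside the gene, 1981 bp past the start (chr1:135256207-135256776), had 16 and 29. The region 9692 bp upstream (chr1:135267885-135268444) had 14 and 19, and the region 9850 bp past the start, beyond the gene end (chr1:135248424-135248821), had 5 and 17. Only the promoter-proximal region was called in mutant, whereas all 4 were called in wildtype. Calls did not follow height alone, since the uncalled mutant heights of 16 and 14 exceeded the 12 of a Tkt region called in mutant. The log2 ratios were -0.89 at the proximal region, -0.82 inside the gene, -0.42 upstream and -1.58 downstream. The first 3 of these lay above the median of all regions and the last lay below it; after scaling the libraries to a common median the first 3 were at 0.16, 0.21 and 0.60, and the last at -0.65. All but the downstream region were also assigned to Rnpep, an aminopeptidase gene, whose start lies farther away in each case, and the upstream region lies inside Rnpep. In the authors' gene table, the mean height over the 4 regions of Elf3 was 16.75 in mutant and 31.25 in wildtype.

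Foxc1 had 2 regions that differed in height and in ratio. The upstream region, at chr13:31800833-31801732 and centred 5364 bp before the start, reached 28 in mutant and 64 in wildtype and was called in both. Its log2 ratio of -1.16 was close to the median of all regions. The region over the start, at chr13:31806338-31806782 and centred 86 bp upstream, had 10 and 13, was called in wildtype only and lay over a CpG island. In wildtype it was a low region, with 4.88% of regions lower, and it was the 1 region of the 12 at a CpG island, beside 23.0% of all regions. Its log2 ratio was -0.35, and its average heights of 7.15 and 7.46 were closer still. Both regions were also assigned to 4930548F15Rik, whose start lies 4602 bp downstream of the proximal region and 9880 bp downstream of the upstream region.

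RefSeq promoter windows (250 bases before to 50 after a gene start, build GRCm38.p6, the assembly of mm10) were set against the regions, and among those found for members only the Foxc1 window was covered by one. The window chr13:31806396-31806695, plus strand, lies whole inside the wildtype-called region. It is shown with 20 bases around the wildtype summit in capitals, next to the Srf promoter at chr17:46556113-46556412, minus strand, where the capitals mark the CArG boxes. Srf is shown because it is a known SRF target, and the region over its start reached 36 in mutant and 41 in wildtype.
Foxc1: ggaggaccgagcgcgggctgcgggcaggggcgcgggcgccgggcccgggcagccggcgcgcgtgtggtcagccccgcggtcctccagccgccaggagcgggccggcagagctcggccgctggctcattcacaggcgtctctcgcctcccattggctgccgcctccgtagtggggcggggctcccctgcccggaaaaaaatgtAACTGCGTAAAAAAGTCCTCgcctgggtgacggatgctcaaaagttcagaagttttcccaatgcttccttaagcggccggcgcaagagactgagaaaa
Srf: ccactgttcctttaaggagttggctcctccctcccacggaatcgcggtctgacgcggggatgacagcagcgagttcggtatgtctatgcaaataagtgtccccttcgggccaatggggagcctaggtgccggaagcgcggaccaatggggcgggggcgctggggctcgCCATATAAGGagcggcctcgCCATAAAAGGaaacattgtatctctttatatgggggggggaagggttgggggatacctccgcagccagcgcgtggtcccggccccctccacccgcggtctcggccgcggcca
The CArG box, 2 C, 6 A or T and 2 G, was found 2 times in the Srf window, 82 and 62 bases before the start, and 0 times in the Foxc1 window. Windows were found for 5 members, with 7 windows in all: Elf3, Foxc1 and Tkt with 1 each and Pax6 and Aldh1a1 with 2 each. None of the 7 held a CArG box, a CArG-like sequence with 1 G or C in the A/T core, or the exact ETS-type sequence CCGGAAG. Both strands were searched, but shorter or variant ETS sequences were not searched for. Of 32851 RefSeq windows, 1.63% held a CArG box, 8.50% a CArG-like sequence and 8.86% the sequence CCGGAAG, so windows without any of them are common. Apart from Foxc1, none of these member windows overlapped a region. No window was found for Clu, whose start lies inside a region, so its promoter was not scanned. The Elf3 window ended 23 bp from its proximal region and the nearer Pax6 window 617 bp from the Pax6 region.

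**Figure D2:**
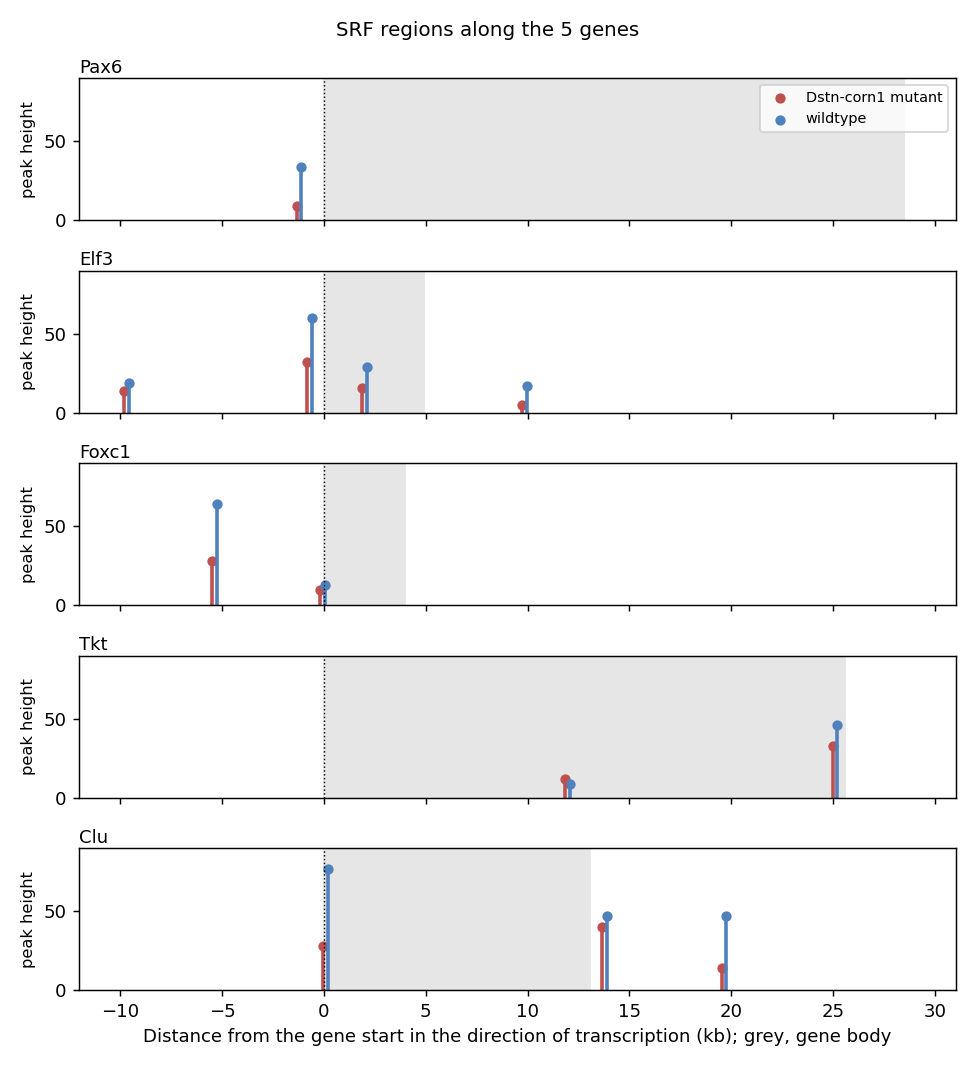
SRF peak height (y axis, deposited signal) against the distance of the region centre from the gene start in the direction of transcription (x axis, kb) for the 5 genes with a region, red for mutant and blue for wildtype, drawn slightly apart for sight; grey marks the gene body. Elf3 and Clu carried a region within 1 kb of the start that was called in both libraries, and the Tkt regions lie 11970 and 25087 bp into the gene.

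Tkt, the transketolase gene, had 2 regions inside the gene and none within 1 kb of its start. The higher region, at chr14:30573725-30574748, 25087 bp past the start and near the gene end, reached 33 in mutant and 46 in wildtype and was called in both. Its log2 ratio was -0.47, and its summit was at 30574400 in each library. Mir3076, a microRNA gene, starts 2087 bp before its centre and was assigned the same region. The other region, at chr14:30560858-30561381, 11970 bp past the start, had 12 in mutant and 9 in wildtype. It was called in mutant only, as were 2.10% of all regions, and it was the only region of the 12 with a higher mutant height (log2 ratio 0.38), which was so at 3.69% of all regions. Both heights were near the lowest height of any called interval, 9, and the average heights were 6.53 and 5.53.

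Clu had the highest wildtype region of the 9 genes and the highest mutant region, at different places. The region over the start, at chr14:65968089-65969022 and centred 72 bp past it, had 28 in mutant and 77 in wildtype (log2 ratio -1.43). The region at chr14:65981851-65982680, 13782 bp past the start and just beyond the gene end, had 40 and 47 (log2 ratio -0.23). The farthest, at chr14:65987725-65988516, 19637 bp past the start, had 14 and 47 (log2 ratio -1.68). All 3 were called in both libraries. In wildtype the start region was the highest and the other 2 had equal heights, while in mutant the region past the gene end was the highest. Of all regions, 29.0% had a lower ratio than the start region, 92.3% a lower ratio than the region past the gene end and 17.2% a lower ratio than the farthest region. With average heights the ratios were -1.05, -0.05 and -1.28, in the same order. Scaling to a common median gave -0.38, 0.82 and -0.66, beside -0.09 over all regions. Such scaling shifts ratios by about the same amount except where the mutant height is very low. That the 3 kept their order is therefore no separate check. Both regions past the gene end were also assigned to Gulo, the gene of the last enzyme of vitamin C synthesis, and the farthest lies inside it.

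The remaining 4 members had no region, and the regions nearest to them were looked up from RefSeq gene bounds. The 2 regions flanking Aldh3a1, the major corneal crystallin gene of the mouse, lay 14602 bp below the lower gene bound (chr11:61193222-61193908) and 12835 bp above the upper bound (chr11:61231253-61231930). The first reached 32 in mutant and 81 in wildtype and the second 19 and 60, and both were called in both libraries and carried no gene name. Of all assignments in the deposited table, 98.6% had the region centre within 10 kb of the gene, and both of these regions lay farther off. The first of them was higher in wildtype than the Clu start region. Around Ehf the nearest region was 43876 bp away, inside A930006I01Rik, with 25 and 41. Around Aldh1a1 it was 42516 bp away, with 6 and 32, called in wildtype only and without a gene name. Around Trp63 it was 71622 bp away, inside Leprel1, with 34 and 47, and no region lay in the 208326 bp of the Trp63 gene.

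The second question was how the mutant heights compared with wildtype over the 12 regions. Mutant heights ran from 5 to 40 with a median of 15, and wildtype heights from 9 to 77 with a median of 40. The median log2 ratio was -0.85, beside -1.10 over all regions, and 7 of the 12 lay above the latter. By a rule of size, 5 of 12 were at least 2-fold lower in mutant (41.7%), beside 59.0% of all regions: Pax6, the downstream region of Elf3, the upstream region of Foxc1, and the start region and farthest region of Clu. None was at least 2-fold higher, beside 0.414% of all regions. The mutant library was also scaled by 2.10, which gave the regions called in both libraries a common median. This moved the median of the 12 to 0.18 and left 0 of them 2-fold lower, beside 9.30% of all regions. After scaling, 1 of the 12, the Tkt region at 11970 bp, was at least 2-fold higher, beside 4.58%.

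**Figure D3:**
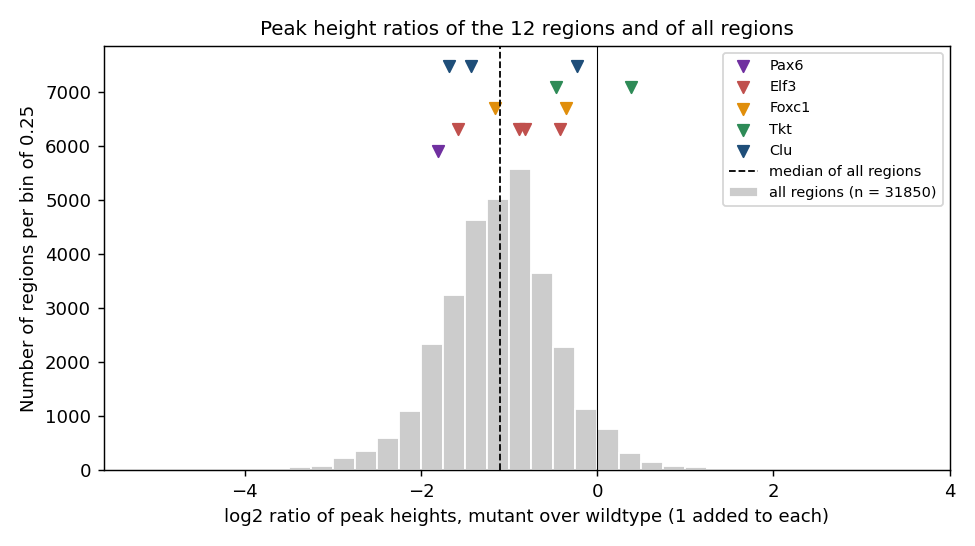
Log2 ratio of peak heights, mutant over wildtype with 1 added to each (x axis), for all 31850 regions as grey bars (y axis, regions per bin) and for the 12 regions as coloured triangles, 1 row per gene, whose vertical position carries no value. The dashed line marks the median of all regions, -1.10, and the triangles run from -1.81 at Pax6 to 0.38 at Tkt.

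Of the 12 regions, 6 were called in both libraries (48.9% of all regions were), 5 in wildtype only (49.0%) and 1 in mutant only (2.10%). The wildtype-only regions were all at transcription factor genes, namely 3 at Elf3 and 1 each at Pax6 and Foxc1, and had wildtype heights of 13 to 34. In the lists of related genes described below, wildtype-only regions were 23 of 52 at other transcription factor genes and 19 of 47 at other enzyme and crystallin genes. The split among the 12 is thus not read as a trait of transcription factor genes. The 7 regions of transcription factor genes had a median log2 ratio of -0.89 and the 5 regions of Tkt and Clu a median of -0.47, with ranges that overlapped (-1.81 to -0.35 and -1.68 to 0.38). The 3 regions within 1 kb of a start had a median of -0.89 and the 9 farther ones -0.82. At the 6 regions called in both libraries the mutant and wildtype summits lay at the same position in 3 and at most 64 bp apart in the others, and the median distance over all 15587 such regions was 32 bp. Summits at Clu were 64, 16 and 0 bp apart, and those of the upstream Foxc1 region 48 bp apart. Every summit listed for the 12 regions fell on a multiple of 16 bp, so the same position means the same step of that grid. Of the 12 regions, 9 were also assigned to another gene, a count given without a share over all regions and so as a description only.

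Next, 2 lists of related genes were described with the same rules. Of 25 other transcription factor genes of the corneal epithelium and anterior segment, 23 had an interval in wildtype and 15 in mutant, beside 65.5% and 49.6% of protein-coding genes. Within 1 kb of the start 14 and 5 of them had an interval, beside 32.1% and 21.0%; Ovol2 and Otx1 had no region. Foxc2, a paralogue of Foxc1, had the highest region of the list, with 64 in mutant and 135 in wildtype 2771 bp upstream of its start, in a region also assigned to Mthfsd. Ovol1, a zinc finger factor gene of epithelial differentiation, had 39 and 97 in a region 7724 bp upstream, also assigned to Ap5b1. Id1, an inhibitor of helix-loop-helix factors, had 26 and 97 at 5895 bp past its start. Runx1 had 39 and 73 at 127313 bp past its start. Elf5, an ETS factor gene next to Ehf, had 29 and 63 in a region shared with the catalase gene Cat. The 52 regions of this list had a median log2 ratio of -0.76, with 19 at or beyond the 2-fold rule for lower mutant height (36.5%, beside 59.0% of all regions).

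Of 25 other aldehyde dehydrogenase, pentose phosphate, glycolytic and crystallin genes, 22 had an interval in wildtype and 16 in mutant, beside the same 65.5% and 49.6% of protein-coding genes. Within 1 kb of the start 11 and 7 had an interval, beside 32.1% and 21.0%. The 25 genes of each list were picked by name and their counts are read as a description only. Pgd, an enzyme gene of the oxidative branch of the pentose phosphate pathway, had 49 in mutant and 157 in wildtype 136 bp upstream of its start, in a region also assigned to Kif1b. Pgls, of the same branch, had 56 and 120 in a region shared with Slc27a1 and Fam129c. Crym, the mu-crystallin gene, had 68 and 156 in a region shared with Abca14. Aldh9a1 had 52 and 128 in a region shared with Mgst3, and Eno1, the alpha-enolase gene, 42 and 96. The transketolase-like genes Tktl1 and Tktl2, and Aldh1b1, had no region. The 47 regions of this list had a median log2 ratio of -1.08, with 28 at or beyond that rule (59.6%, beside 59.0% of all regions).

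**Figure D4:**
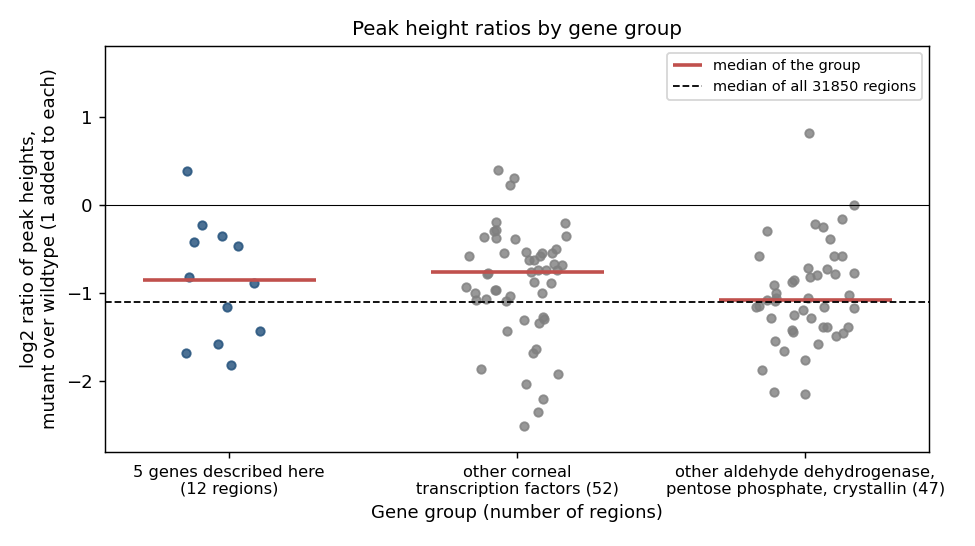
Log2 ratio of peak heights, mutant over wildtype with 1 added to each (y axis), for the 12 regions described here, the 52 regions of other corneal transcription factor genes and the 47 regions of other aldehyde dehydrogenase, pentose phosphate and crystallin genes (x axis); each point is a region, red bars are group medians and the dashed line is the median of all regions. The medians are -0.85, -0.76 and -1.08, and the points of the 3 groups overlap.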

How the data were processed

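SRF ChIP-seq and input libraries of mouse cornea were sequenced; the submitters' processing notes name BWA and the build mm10. Caller, threshold and scaling of the libraries: not given in the sources used here. Mutant or wildtype comes from the sample titles, and the name Dstn-corn1 from the growth protocol. The deposited tables hold intervals of each library, merged regions and genes; the authors' signal values in them are peak and average heights, per the file headers; gene assignments and distances are the authors'. The deposited ratio column was not used. Coordinates are as listed, and whether region starts count from 0 is not given.

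Log2 ratios of mutant to wildtype were computed from peak heights after adding 1, and called at 2-fold. All regions of the 9 genes entered without a filter. Overlap needed 1 bp. The members and both gene lists were chosen with earlier results of these data known. Named genes are the 9 members, Dstn, Srf, genes sharing a member's region and, per list, the 5 genes with the highest region. The code for the ratio and call rule was run on simulated counts, most of them above the median heights here, with no offset between libraries. How the rule behaves at low heights was not tested. With 1 library per genotype no test was made. RefSeq promoter windows (GRCm38.p6) were scanned for motifs; regions outside them were not scanned, as no genome was used here. The alternatives were another pseudocount, average heights, scaling to a common median, height and call filters, and other distance and overlap rules. Scaling made the median peak heights of the regions called in both libraries equal. Python 3.11.15, numpy 2.4.6, pandas 2.3.3 and matplotlib 3.10.9 were used.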

Additional observations from a re-analysis of the deposited data

How the results depend on the processing

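No paired analysis was possible because there was 1 library per genotype, and for the same reason none could be left out. The median log2 ratio of the 12 regions, -0.85, was -0.75 with a pseudocount of 5 (all regions -0.93), -0.54 with average heights (-0.83), 0.18 after scaling to a common median (-0.09), -1.03 over the 6 regions called in both libraries (-0.96) and -1.03 over the 8 regions whose higher library reached 28, the median over all regions (-1.21). It lay above the median of all regions under each of these but the restriction to regions called in both. The pseudocount and scaling settings reuse the same heights. The height filter kept regions by their higher library, which was wildtype at 11 of the 12. The tally is therefore not read as a check of stability. The count of 5 regions at least 2-fold lower in mutant stayed at 5 with a pseudocount of 5 (45.3% of all regions). It became 4 with average heights (35.5%) and 0 after scaling (9.30%). Among regions called in both it was 3 of 6, beside 48.2% of all such regions. With the height filter of 28 it was 4 of 8, beside 68.6%. Fewer regions entered under these filters. For other transcription factor genes the 19 regions became 11 with average heights and 4 after scaling, and for other enzyme and crystallin genes the 28 became 15 and 2. Over all regions the share went from 59.0% to 35.5% with average heights and 9.30% after scaling. Apart from the move with fewer regions and the shift that scaling makes by construction, the cause was not tested. At the highest region of each gene the scaled ratios were -0.81 for Pax6, 0.16 for Elf3, -0.12 for Foxc1, 0.58 for Tkt and -0.38 for Clu, beside -0.09 for all regions; their signs follow from the unscaled ratios and say nothing about stability. Within 5 kb of a start 4 members had an interval in wildtype and 2 in mutant, beside 42.2% and 28.2% of protein-coding genes. Keeping only intervals no lower than the median interval, 24, the counts within 1 kb were 2 and 2, beside 16.4% and 7.25%, and those at any distance 5 and 4, beside 51.4% and 24.0%. All 6 regions called in both also met a reciprocal overlap of 50%, which is given without a share over all such regions. Motif searches in whole regions were not run, as no genome was used here. Depth is unknown, so its limit on the low regions could not be computed.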
